A study of Homo sapiens with 7 samples.

Results

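A set of 10 genes is described here that codes for smooth muscle actin and for proteins that lie along or bundle actin filaments: the actin gene ACTA2, the transgelins TAGLN and TAGLN2, the calponins CNN2 and CNN3, the caldesmon gene CALD1 and the tropomyosins TPM1, TPM2, TPM3 and TPM4. They were chosen by name, and all 10 were present among the 14535 genes of the deposited table, each in a single row. RNA came from A549, a human lung adenocarcinoma line of epithelial cells, in 2 groups. In the stretch group (4 libraries, numbered 4 to 7) a 24 h cyclic stretch of 15% elongation was applied, with 15 cycles each min. In the doxorubicin group (3 libraries, numbered 1 to 3) the cells received 100 nM doxorubicin, a DNA-damaging topoisomerase II poison, for 24 h. After 6 days both groups were stained for β-galactosidase, a marker of senescent cells, and positive cells were sorted. The data therefore set β-galactosidase-positive cells after stretch against those after the drug, in the same line, and untreated or unsorted cells were not analysed here. Separate cultures are not named in the labels, so the p-values reflect differences among these libraries alone, and those can be technical.

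Actin filaments in most cells carry a strand of tropomyosin, a coiled-coil dimer that lies in the groove of the filament and decides which myosins and severing proteins gain access. Calponins and caldesmon bind to the same filament and restrain the myosin motor, while transgelins are small calponin-related proteins that cross-link filaments. Several of these genes are classical targets of serum response factor (SRF) and its cofactors, the myocardin-related transcription factors, which enter the nucleus when free actin monomer runs low. ACTA2 and TAGLN are best known from smooth muscle and myofibroblasts, whereas TPM3, TPM4, TAGLN2, CNN2 and CNN3 are expressed in many cell types.

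Library totals were 5636386 to 7419778 counts in stretch and 2611739 to 4644250 counts in doxorubicin. The translation factor gene EIF4A2 took 1.67% to 2.87% of counts in stretch and 10.8% to 30.6% in doxorubicin, the highest share being in library 2. A level of 3 counts, taken as detection, was 0.321 to 0.401 CPM in stretch, against 1.19, 2.59 and 0.567 CPM in doxorubicin libraries 1, 2 and 3. CPM are counts scaled to a common library size with TMM factors (trimmed mean of M-values). Epithelial markers were present in both groups, with all 6 listed genes in the table and a summed level of 2053 to 2394 CPM in stretch and 3281 to 6767 CPM in doxorubicin. EPCAM, one of them, stood at 10.2 to 14.6 CPM in stretch and at 0.865 to 4.54 CPM in doxorubicin. Defining smooth muscle markers were near 0: of 7 listed, MYH11, CNN1 and SYNPO2 were in the table, their sum was 0.108 to 0.428 CPM in stretch and 0.397 to 2.59 CPM in doxorubicin, and no gene of these exceeded 3 counts in any library. Of 8 fibroblast markers 6 were in the table, with a sum of 15.5 to 16.8 CPM in stretch and 18.7 to 45.0 CPM in doxorubicin. Of 5 endothelial markers only CDH5 was in the table, at up to 0.963 CPM in stretch and at 0 counts in doxorubicin. Of 5 immune markers CD68, CD14 and LYZ were in the table, summing to 57.5 to 60.97 CPM in stretch and 100.2 to 139 CPM in doxorubicin. The part of these markers in the results was not tested.

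Of the 10 genes, only TAGLN passed the test with all libraries, and it was lower in stretch. It reached the low-count filter in the doxorubicin libraries alone, so its call is not independent of that filter. The other 9 did not pass, and for several of them the doxorubicin libraries differed widely among themselves. Libraries 1 and 2 had high ACTA2 and CNN2 and low TPM2 and TPM3, whereas library 3 had TPM2, TPM3 and CNN2 at stretch levels and low ACTA2. TPM4 was above the stretch range in all 3 doxorubicin libraries. In libraries 1 and 3 TPM1 was above that range and CNN3 inside it, while both were below it in library 2. In edgeR's quasi-likelihood test 11230 genes were compared, p-values were adjusted over all of them by the Benjamini-Hochberg method, and 261 passed an adjusted p of 0.05 (2.32%), of which 221 (1.97% of those tested) were lower in stretch. At an unadjusted p under 0.05 it was 2 of the 10 genes, ACTA2 and TAGLN, and 23.2% of all tested genes. For the 10 genes the median log2 fold change, stretch minus doxorubicin, was -0.26, beside 0.02 for all tested genes, and 4 genes lay on the stretch side and 6 on the doxorubicin side. The CPM ranges of the groups did not overlap for TAGLN and TPM4, both with stretch below, where 9.88% of all tested genes had stretch below and 21.4% did not overlap in either direction. In bulk RNA, a smaller share of expressing cells and less RNA per cell cannot be told apart. How many of the 10 genes passed depended on the setting. TAGLN alone passed with RLE factors (2.26% of all genes passing), upper-quartile factors (1.84%), no filter on low counts (1.96%), DESeq2 (10%) and limma-voom (1.66%). It also passed alone without doxorubicin library 1 (0.197%) or 2 (2.47%), and without stretch library 4 (0.359%) or 5 (0.146%). None passed by edgeR without stretch library 6 or 7 (0.109% each), with library totals in place of TMM factors (0.116%) or among genes with a mean of at least 10 CPM (1.91%), where TAGLN was not tested. With library quality weights in limma-voom 5 passed, where 46.3% of all genes did. The summed level of the 10 genes was 1067 to 1203 CPM in stretch and 997 to 1371 CPM in doxorubicin.

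**Figure D1:**
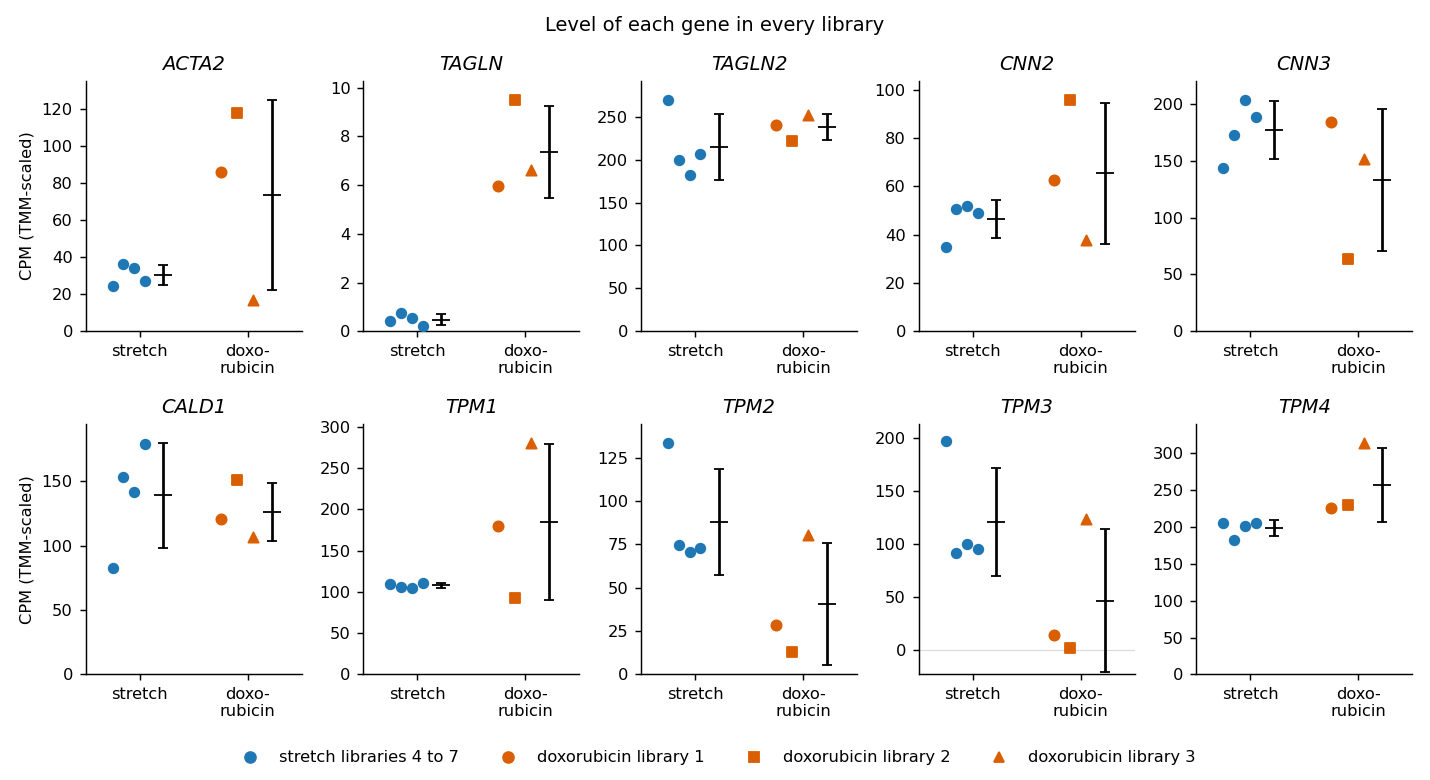
Level of each gene in CPM (vertical axis, linear) in the 4 stretch libraries (circles, libraries 4 to 7 from left to right) and the 3 doxorubicin libraries (a symbol each); bars show mean and SD. TAGLN separates the groups, while the doxorubicin libraries themselves spread widely for ACTA2, TPM1, TPM2 and TPM3.

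**Figure D2:**
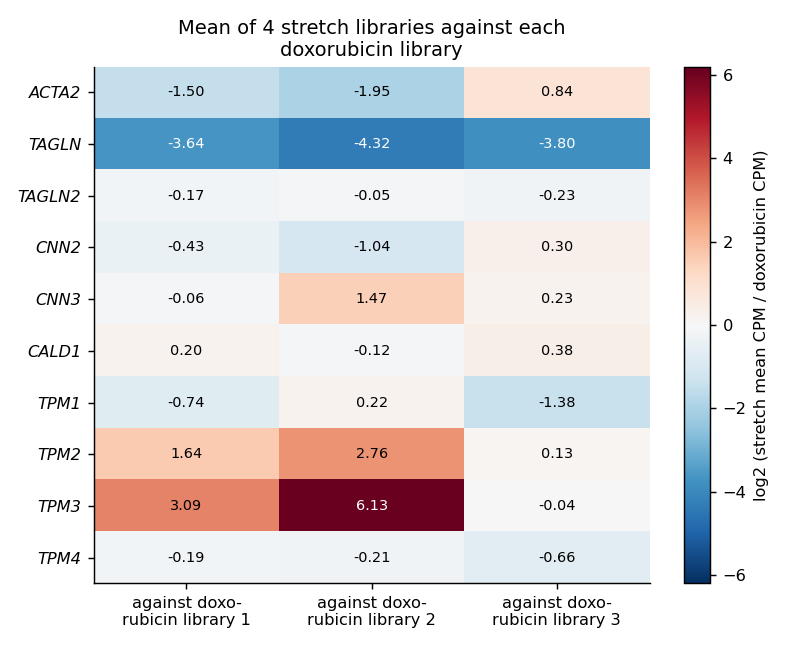
Log2 ratio of the mean CPM of the 4 stretch libraries over the CPM of each doxorubicin library, for the 10 genes (rows) and the 3 doxorubicin libraries (columns). TAGLN is between -4.32 and -3.64 against each library, while ACTA2 changes sign in library 3 and TPM3 ranges from -0.04 to 6.13.

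TAGLN codes transgelin (SM22-alpha), an actin cross-linking protein used as an early marker of smooth muscle differentiation. The gene lies on chromosome 11, 117199321 to 117204782, plus strand (GENCODE release 29, GRCh38). It had 3, 7, 5 and 2 counts in stretch libraries 4 to 7 and 15, 11 and 35 counts in doxorubicin libraries 1 to 3, although the doxorubicin libraries were shallower. The levels were 0.401, 0.749, 0.541 and 0.215 CPM in stretch, against 5.96, 9.51 and 6.62 CPM in doxorubicin. Every doxorubicin library was above every stretch library, and stretch library 7 lay under the detection level of 3 counts. The means were 0.476 ± 0.225 CPM in stretch (SD, n = 4) and 7.36 ± 1.89 CPM in doxorubicin (n = 3). TAGLN fell after stretch relative to doxorubicin, with a log2 fold change of -3.85 (SE 0.50, adjusted p = 0.00858 by edgeR's quasi-likelihood test), and ranked 14 of 11230 genes by p. Pooled over libraries, 17 counts in stretch and 61 in doxorubicin gave a level 14.2-fold higher in doxorubicin (95% exact interval 8.16 to 25.9, counting error only). With library 3 as the only doxorubicin library the pooled ratio was 13.8 (7.51 to 26.2). TAGLN entered the test through the doxorubicin libraries alone, since 0 of 4 stretch libraries and 3 of 3 doxorubicin libraries reached the filter's minimum of 1.77 CPM by library total. Its call and its rank are therefore not independent of that choice. Over 15 alternatives the log2 fold change stayed between -4.15 and -3.10, with adjusted p from 6.83e-08 to 0.112. The call was lost without stretch library 6 (adjusted p = 0.0674), without stretch library 7 (adjusted p = 0.0545) and with library totals in place of TMM factors (adjusted p = 0.112), all by edgeR. PCSK7, a proprotein convertase gene that overlaps TAGLN on the opposite strand, stood at 88.4 ± 15.0 CPM in stretch and 122 ± 16.8 CPM in doxorubicin, with a log2 fold change of -0.46. Whether counting used strand is not given in the sources used here, so reads of TAGLN and PCSK7 may not be separable.

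TAGLN2 codes the transgelin of non-muscle cells (chromosome 1, 159918107 to 159925732, minus strand). It stood at 270, 200, 182 and 206 CPM in stretch libraries 4 to 7 and at 241, 222 and 252 CPM in doxorubicin libraries 1 to 3. All 3 doxorubicin values lay inside the stretch range. TAGLN2 had a log2 fold change of -0.15 (SE 0.28, adjusted p = 0.771 by edgeR). Counts of TAGLN were 0.104% to 0.374% of the summed TAGLN and TAGLN2 counts in stretch, against 2.41%, 4.10% and 2.56% in doxorubicin libraries 1, 2 and 3. This share does not depend on how libraries were scaled, but it rests on the same few TAGLN counts as the call above. Its ranges did not overlap, as those of TAGLN itself did not, so it is not a separate result. TAGLN met the low-count filter through the doxorubicin libraries alone.

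ACTA2 codes alpha smooth muscle actin, the actin isoform of smooth muscle and of contractile myofibroblasts (chromosome 10, 88935074 to 88991339, minus strand). It stood at 24.6, 36.1, 33.8 and 27.2 CPM in stretch libraries 4 to 7, against 85.8, 118 and 17.0 CPM in doxorubicin libraries 1, 2 and 3. Doxorubicin libraries 1 and 2 were above the whole stretch range and library 3 was below it. The log2 fold change was -1.25 (SE 0.51, adjusted p = 0.176 by edgeR). It was -1.70 without doxorubicin library 3 (adjusted p = 0.00147 by edgeR, in a setting where 32.2% of all genes passed), and 0.85 with library 3 as the only doxorubicin library (0.802% of genes passing). Wherever library 3 stands alone, the spread comes from the 4 stretch libraries only and the lone library is assumed to vary as they do, so those values are read as sizes and not as calls. Without doxorubicin library 2 it was -0.72. FAS, the death receptor gene, and STAMBPL1 overlap ACTA2 on the opposite strand. FAS stood at 28.4 to 37.3 CPM in stretch and at 87.8, 60.5 and 41.4 CPM in doxorubicin libraries 1, 2 and 3, so library 3 was above the stretch range for FAS and below it for ACTA2. STAMBPL1 had a log2 fold change of -0.55, and neither it nor FAS (log2 fold change -0.97, adjusted p = 0.111 by edgeR) passed.

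SRF binds the CArG box, so the RefSeq promoters of these genes were read for it, in the 250 bases before each annotated start (GRCh38.p14). The table held 20 such windows for 9 of the 10 genes, TAGLN being the exception. The motif searched was CCNNNNNNGG, which reads the same on both strands, with A or T at all 6 middle positions (a full match) or at 5 or more of them (a near match). A full match stood in 1.16% of all 35116 windows and a near or full match in 7.04%. CNN2 and TPM4 had a full match in a window each, and CALD1 and ACTA2 near matches. The ACTA2 window held 2 near matches, whose first bases lay 121 and 71 bases before the start, and 0.587% of all windows held at least 2. No window of TAGLN2, CNN3, TPM1, TPM2 or TPM3 held either form, which says only that these letters are absent there. The 3 windows with a full match or with 2 near matches are shown 5′ to 3′ in lower case with the matches in capitals: ACTA2 at chr10:88952774-88953023 (minus strand), CNN2 at chr19:1026358-1026607 (plus strand) and TPM4 at chr19:16067288-16067537 (plus strand).
ACTA2: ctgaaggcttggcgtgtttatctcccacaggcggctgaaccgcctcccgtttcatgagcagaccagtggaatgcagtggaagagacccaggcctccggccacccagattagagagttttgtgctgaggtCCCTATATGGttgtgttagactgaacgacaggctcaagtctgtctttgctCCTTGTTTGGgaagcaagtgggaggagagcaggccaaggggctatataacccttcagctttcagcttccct
CNN2: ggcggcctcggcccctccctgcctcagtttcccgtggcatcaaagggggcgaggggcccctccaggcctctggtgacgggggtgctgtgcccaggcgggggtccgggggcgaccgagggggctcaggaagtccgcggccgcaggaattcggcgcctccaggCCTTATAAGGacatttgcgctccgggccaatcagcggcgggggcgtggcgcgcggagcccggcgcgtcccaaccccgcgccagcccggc
TPM4: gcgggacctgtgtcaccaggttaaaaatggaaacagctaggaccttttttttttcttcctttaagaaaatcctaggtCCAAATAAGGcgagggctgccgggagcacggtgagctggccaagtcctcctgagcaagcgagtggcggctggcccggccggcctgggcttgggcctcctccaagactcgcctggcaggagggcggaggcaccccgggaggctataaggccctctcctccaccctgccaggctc
The match in TPM4 starts 173 bases before its start, and that in CNN2 starts 89 bases before its start. ACTA2 and CNN2 were highest in doxorubicin library 2 and next highest in library 1, and TPM4 was highest in library 3. CALD1, with a near match, had all 3 doxorubicin values inside the stretch range. Whether these matches bear on the levels was not tested. The same windows were read for GGAATG on both strands, a core bound by the TEAD factors that partner YAP, which was found in 4 of the 20 windows (of ACTA2, CNN3 and CALD1) and in 11.9% of all windows.

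CNN2 codes calponin 2, the calponin of non-muscle and growing cells (chromosome 19, 1026581 to 1039068, plus strand). It stood at 34.98, 50.5, 51.7 and 48.9 CPM in stretch libraries 4 to 7 and at 62.7, 96.0 and 37.8 CPM in doxorubicin libraries 1, 2 and 3. As for ACTA2, libraries 1 and 2 were above the stretch range, but library 3 lay inside it. The log2 fold change was -0.48 (SE 0.35, adjusted p = 0.422 by edgeR), and 0.32 against library 3 alone. GENCODE lists 11 CNN2 pseudogenes, so its counts are uncertain where reads fit more than 1 copy.

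CNN3 codes calponin 3, an acidic calponin found in many tissues (chromosome 1, 94896949 to 94927278, minus strand). It stood at 144, 172, 204 and 189 CPM in stretch and at 184, 64.0 and 151 CPM in doxorubicin libraries 1, 2 and 3. Library 2 alone lay below the stretch range. CNN3 had a log2 fold change of 0.41 (SE 0.37, adjusted p = 0.530 by edgeR), and 0.09 without library 2. The ratio of CNN2 to CNN3 counts was 0.243 to 0.293 in stretch, against 0.341, 1.5 and 0.250 in doxorubicin libraries 1, 2 and 3, so library 3 lay inside the stretch range.

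CALD1 codes caldesmon, which blocks the actomyosin ATPase until calmodulin or phosphorylation releases it (chromosome 7, 134744252 to 134970728, plus strand). It stood at 82.4, 153, 141 and 179 CPM in stretch and at 121, 150 and 107 CPM in doxorubicin. All 3 doxorubicin values lay inside the stretch range. CALD1 had a log2 fold change of 0.14 (SE 0.33, adjusted p = 0.821 by edgeR). Each gene has a single value, read from PCR amplicons rather than whole transcripts, so it need not cover all splice forms. The smooth muscle and non-muscle splice forms of CALD1 and of the tropomyosins cannot be told apart.

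The tropomyosin genes differed from each other in how they followed the libraries. TPM1 (chromosome 15, 63042632 to 63071915, plus strand) makes tropomyosin forms of stress fibres and of muscle. It stood at 110, 106, 105 and 111 CPM in stretch libraries 4 to 7, with a coefficient of variation of 2.49%, and at 180, 92.5 and 281 CPM in doxorubicin libraries 1, 2 and 3. Libraries 1 and 3 were above the narrow stretch range and library 2 was below it. The log2 fold change was -0.78 (SE 0.36, adjusted p = 0.224 by edgeR), and -1.36 with library 3 as the only doxorubicin library. The adjusted p of 0.0266 by edgeR in that last setting rests on the narrow spread of the stretch libraries alone and carries no error from the doxorubicin libraries. TPM4 (chromosome 19, 16067021 to 16103005, plus strand) makes a short tropomyosin of non-muscle cells. It stood at 205, 182, 201 and 205 CPM in stretch and at 226, 230 and 314 CPM in doxorubicin. All 3 doxorubicin libraries were above the stretch libraries, but the log2 fold change of -0.37 (SE 0.28, adjusted p = 0.429 by edgeR) did not pass.

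TPM2 (chromosome 9, 35681992 to 35690121, minus strand), whose product beta-tropomyosin is abundant in smooth and skeletal muscle, lay on the stretch side. It stood at 134, 74.5, 70.7 and 73.0 CPM in stretch libraries 4 to 7 and at 28.2, 13.0 and 80.1 CPM in doxorubicin libraries 1, 2 and 3. Libraries 1 and 2 were below every stretch library and library 3 was inside the stretch range. The log2 fold change was 1.079 (SE 0.53, adjusted p = 0.246 by edgeR). Without doxorubicin library 3 it was 2.07 (adjusted p = 0.00404 by edgeR), in a setting where 32.2% of all genes passed. With library 3 as the only doxorubicin library it was 0.15.

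TPM3 (chromosome 1, 154155304 to 154194648, minus strand), which makes slow muscle and short non-muscle tropomyosins, had the widest spread of the 10 genes within doxorubicin. It had 1480, 861, 930 and 885 counts in stretch libraries 4 to 7 and 36, 2 and 658 counts in doxorubicin libraries 1, 2 and 3. The levels were 198, 92.1, 101 and 95.2 CPM in stretch, against 14.3, 1.73 and 124 CPM in doxorubicin. Library 2 was under its detection level of 2.59 CPM, and library 3 was inside the stretch range. The coefficient of variation was 42.0% in stretch and 144% in doxorubicin, and 0.240% of 7501 genes with a mean of at least 10 CPM varied more than this in doxorubicin. The median gene of those varied by 18.4% in stretch and 42.9% in doxorubicin. The log2 fold change of TPM3 was 1.32 (SE 0.88, adjusted p = 0.382 by edgeR). It was 3.76 without doxorubicin library 3 (adjusted p = 0.00133 by edgeR, where 32.2% of all genes passed). With library 3 as the only doxorubicin library it was -0.02. GENCODE lists 8 TPM3 pseudogenes, so the counts of TPM3 are uncertain. The only one in the table, TPM3P9, had 6, 3, 2 and 4 counts in stretch and 0, 0 and 3 counts in doxorubicin.

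**Figure D3:**
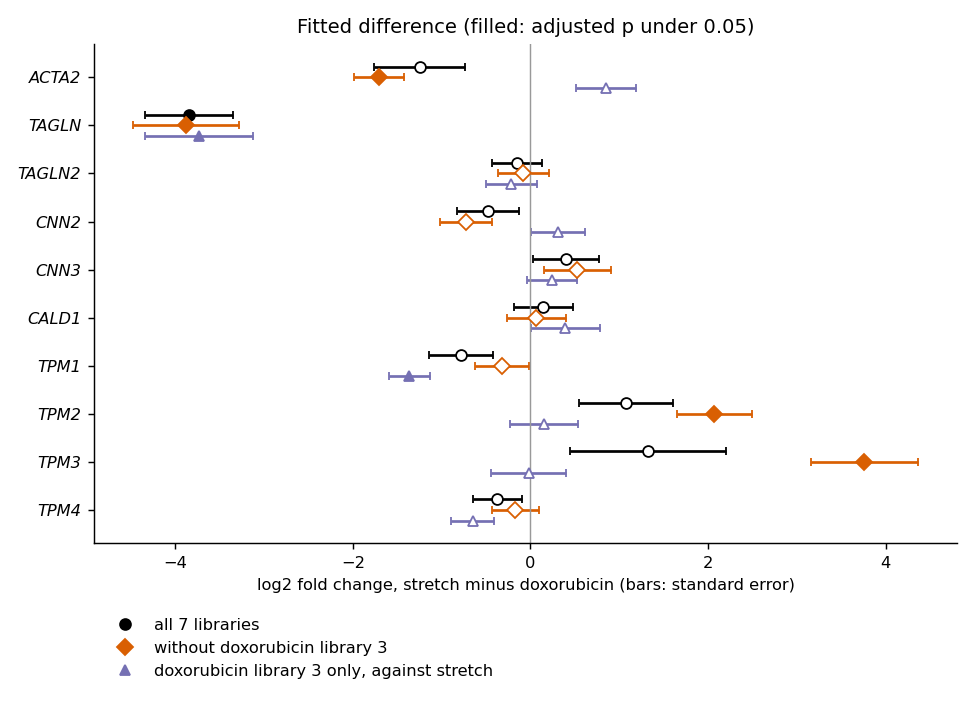
Log2 fold change, stretch minus doxorubicin (horizontal axis, bars show the standard error), for the 10 genes with all libraries, without doxorubicin library 3 and with that library alone against stretch; filled symbols have an adjusted p under 0.05, which for library 3 alone rests on the spread of the stretch libraries only. TAGLN stays near -3.8 in all 3 settings, whereas ACTA2 crosses 0 and TPM2 and TPM3 move toward 0 when library 3 stands alone. Without library 3, 32.2% of all genes passed.

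Within a library the make-up of the tropomyosin counts can be set out without any scaling between libraries. The shares compare libraries, not genes, because each gene's count also depends on the stretch of it that was amplified. TPM1 held 17.0%, 23.4%, 22.01% and 22.9% of the tropomyosin counts in stretch libraries 4 to 7, against 40.2%, 27.4% and 35.1% in doxorubicin libraries 1, 2 and 3. TPM2 held 20.7%, 16.4%, 14.8% and 15.1% in stretch, against 6.28%, 3.85% and 10.03% in doxorubicin. TPM3 held 30.6%, 20.3%, 21.1% and 19.7% in stretch, against 3.19%, 0.513% and 15.6% in doxorubicin. For these 3 genes the group ranges of the shares did not overlap, library 3 included, with TPM1 lower and TPM2 and TPM3 higher in stretch. TPM4 overlapped, at 31.8% to 42.4% in stretch and 39.3% to 68.2% in doxorubicin. By CPM, the group ranges of TPM1, TPM2 and TPM3 did overlap. How often such shares separate the groups in other gene families was not computed. The shares of a library add up to a fixed whole, so these are not separate results for each gene. By CPM, doxorubicin library 3 had TPM2 (80.1) and TPM3 (124) inside the stretch range, and TPM1 (281) and TPM4 (314) above it. The ratio of TPM1 to TPM2 counts was 0.823 to 1.51 in stretch and 6.39, 7.13 and 3.505 in doxorubicin libraries 1, 2 and 3. These shares were chosen for display after the values were seen and carry no test. TPM2 and TPM3 followed each other over the 7 libraries, with a Pearson correlation of log-CPM of 0.99, and ACTA2 followed CNN2 at 0.93, while ACTA2 and TPM3 had -0.93. Depth and the share of EIF4A2 differ over the same 7 libraries, so these correlations describe the libraries only.

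**Figure D4:**
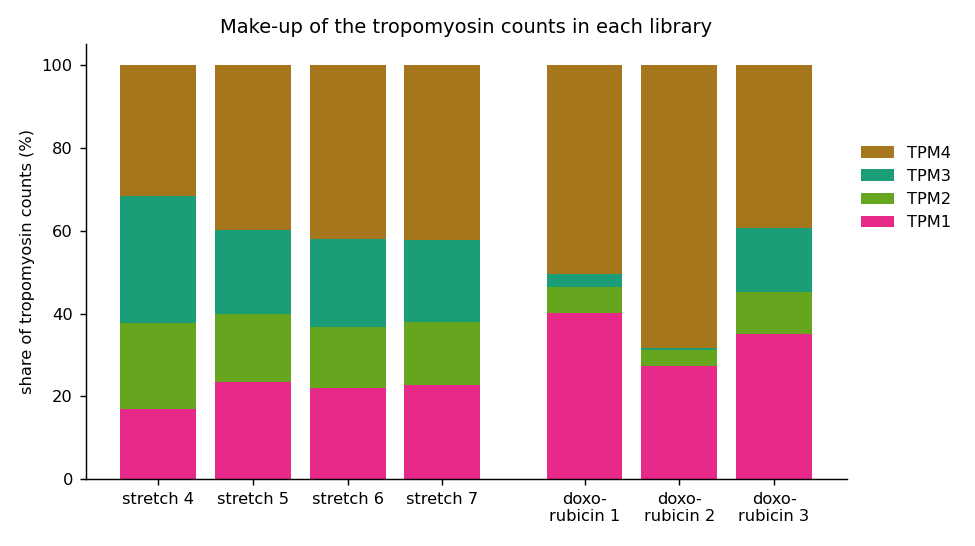
Share of each tropomyosin gene in the summed tropomyosin counts of each library (stacked bars, percent), stretch libraries 4 to 7 on the left and doxorubicin libraries 1 to 3 on the right. TPM2 and TPM3 together take less in each doxorubicin library than in any stretch library.

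Genes that act with these proteins on the actin filament were read from lists, and 1 or 2 members of most lists passed, where 2.32% of all tested genes did. The lists are short, with 1 to 20 genes tested, so a count of 1 or 2 is not read as a result about a list. Among the tropomodulins, leiomodins and troponins, which cap the filament or sit on tropomyosin, 5 of 15 were tested, 1 was higher in stretch and 1 lower. TNNI3, the cardiac inhibitory troponin, was higher in stretch, at 5.91 ± 1.21 CPM in stretch (n = 4) and 0.769 ± 0.756 CPM in doxorubicin (n = 3), with a log2 fold change of 2.51 (adjusted p = 0.0494 by edgeR). It had 2, 0 and 8 counts in doxorubicin libraries 1, 2 and 3, all under the minimum of the low-count filter, so it entered the test through the stretch libraries alone and its call is not independent of that choice. TMOD2, a tropomodulin that caps the slow end of filaments, was lower in stretch, at 2.80 ± 0.568 against 14.1 ± 6.93 CPM, with a log2 fold change of -2.29, and -1.22 with doxorubicin library 3 alone. Among other smooth muscle contractile genes, 1 of 7 tested passed (17 listed). This was MYLK, the myosin light chain kinase, at 12.3 ± 3.17 CPM in stretch and 44.1 ± 8.25 CPM in doxorubicin (log2 fold change -1.84), whereas PPP1R12A, a subunit of myosin phosphatase, had -0.77 and did not pass. The median of that list was -0.43.

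Of 17 listed SRF targets outside the 10 genes, 14 were tested, 12 lay on the doxorubicin side, where 5482 of all 11230 genes lay, and 1 passed, with a median log2 fold change of -1.21 beside 0.02 for all genes. At an unadjusted p under 0.05 there were 10 of the 14, beside 23.2% of all genes. FOS was among these 10 but lay on the stretch side, with means of 115 CPM in stretch and 36.9 CPM in doxorubicin. EGR1 also lay on the stretch side and was not among the 10. DESeq2 called 6 genes of the list, FHL2 among them, beside 10% of all genes. With doxorubicin library 3 alone the median was -0.20 for the list. PDLIM7, a PDZ and LIM domain protein of stress fibres, stood at 19.2, 17.4, 18.2 and 13.4 CPM in stretch libraries 4 to 7, against 80.6, 105 and 75.6 CPM in doxorubicin. Its groups did not overlap, the log2 fold change was -2.34 (SE 0.28, adjusted p = 0.00470 by edgeR), and it was -2.13 with library 3 alone. FHL2, a LIM-only cofactor, had a log2 fold change of -1.49 (adjusted p = 0.0566 by edgeR) and did not pass. Of 9 listed genes for SRF and its cofactors, 5 were tested and none passed by edgeR, with 2 at an unadjusted p under 0.05 (23.2% of all genes) and 1 called by DESeq2. SRF itself was not analysed here. MKL1, which codes the actin-sensing cofactor MRTF-A, stood at 60.0 ± 8.19 CPM in stretch and 161 ± 65.99 CPM in doxorubicin (log2 fold change -1.41, adjusted p = 0.0566 by edgeR), and SCAI, a suppressor of that cofactor, had a log2 fold change of 0.86.

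Actin turnover genes were measured almost completely. Of 20 genes for monomer binding, severing and capping, all were tested, 1 passed and the median was -0.02. LIMK1, the kinase that inactivates cofilin, stood at 91.1 ± 5.80 CPM in stretch and 295 ± 121 CPM in doxorubicin (log2 fold change -1.69, and -1.05 with doxorubicin library 3 alone), while the cofilin phosphatase gene SSH3 had -1.19 and did not pass. Of 20 genes for filament nucleation 18 were tested, 1 passed and the median was 0.10. DAAM1, a formin, stood at 9.30 ± 2.55 CPM in stretch and 27.6 ± 5.69 CPM in doxorubicin (log2 fold change -1.57), and ARPC3, a subunit of the Arp2/3 complex, had 1.601 and did not pass. Of 7 other actin, calponin and transgelin genes, only ACTB, the cytoplasmic beta-actin, was tested. It stood at 6236, 4328, 5033 and 4228 CPM in stretch, against 8235, 25974 and 4419 CPM in doxorubicin libraries 1, 2 and 3. The order of the doxorubicin libraries was that of ACTA2 and CNN2, and the log2 fold change of -1.38 did not pass (adjusted p = 0.154 by edgeR; the list had 1 gene at an unadjusted p under 0.05, and 0 called by DESeq2). TNNI3, TMOD2, LIMK1 and DAAM1 lost their calls without doxorubicin library 1 and without any 1 of the 4 stretch libraries. MYLK lost its call without doxorubicin library 1 and without stretch libraries 5, 6 or 7, and PDLIM7 without stretch libraries 6 or 7. With library totals in place of TMM factors all 6 lost their calls, with adjusted p by edgeR from 0.125 for PDLIM7 to 0.253 for DAAM1. Their log2 fold changes were then 3.11 for TNNI3, -1.44 for TMOD2, -1.06 for MYLK, -1.54 for PDLIM7, -0.78 for LIMK1 and -0.84 for DAAM1. TMOD2 and TNNI3 also lost theirs with limma-voom, TNNI3 and DAAM1 with upper-quartile factors, and DAAM1 with no filter on low counts.

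**Figure D5:**
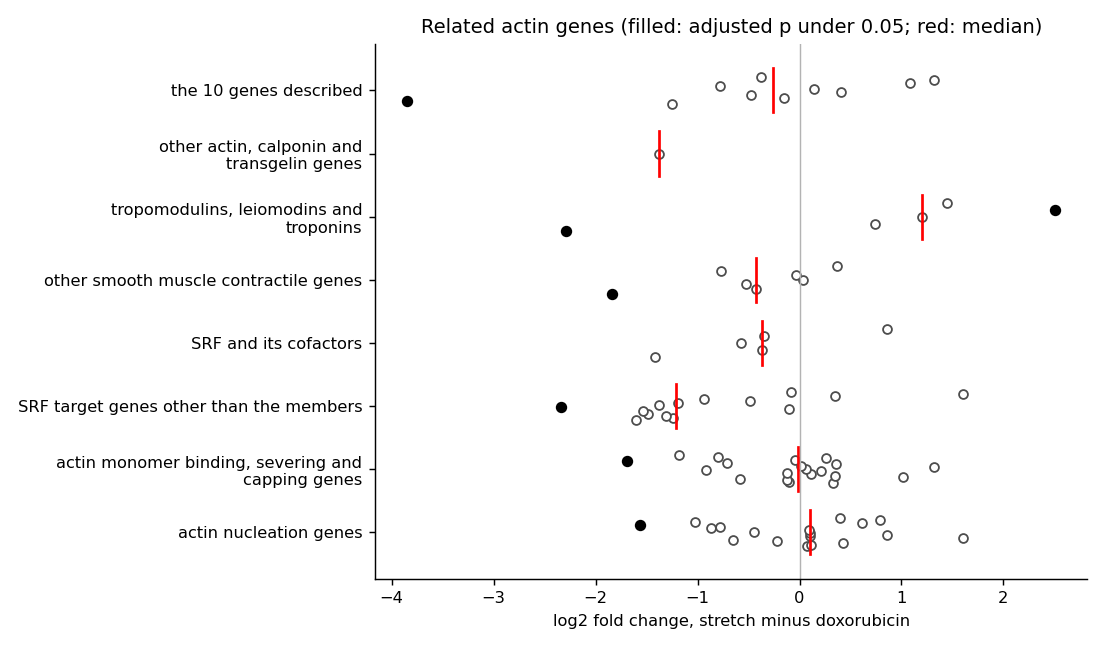
Log2 fold change, stretch minus doxorubicin (horizontal axis), of each tested gene in the fixed lists (rows), with filled points for an adjusted p under 0.05 and a red line at the median. The called genes lie on the doxorubicin side in every row that has one, apart from TNNI3. Of all 261 genes called, 221 lay on that side too.

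The genes whose levels most resembled TAGLN over the 7 libraries, among 7501 with a mean of at least 10 CPM, were FSTL1, PDLIM7, BST2, PSAP and CFB, with Pearson correlations of log-CPM from 0.977 to 0.993. FSTL1, a secreted follistatin-like glycoprotein, stood at 48.9 ± 5.74 CPM in stretch and 160 ± 25.5 CPM in doxorubicin. PSAP, the precursor of the lysosomal saposins, stood at 485 ± 65.0 CPM in stretch and 1528 ± 115 CPM in doxorubicin. BST2, which tethers budding virions, stood at 1.11 ± 0.554 CPM in stretch and 35.1 ± 8.42 CPM in doxorubicin. BST2 and CFB (8.12 CPM in stretch) met the mean of 10 CPM through the doxorubicin libraries, so their place here is not independent of that choice. The log2 fold changes of the 5 genes ran from -4.95 (BST2) to -1.66. They share the library sizes and the group difference with TAGLN, so the correlations are a description.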

How the data were processed

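Gene expression was measured in 7 libraries of A549 cells, 4 after cyclic stretch and 3 after doxorubicin, made with an Ion AmpliSeq kit per the labels' protocols, which reads PCR amplicons of each gene rather than whole transcripts. Sample titles gave the groups and the library numbers. The authors deposited 1 table of estimated counts per gene, whole numbers not normalised between libraries, with at least 1 count in 3 or more libraries in each of 14647 rows. GRCh38, Salmon 1.9 and fastp 0.20.1 are named per the submitters' processing notes, with no role or order stated, and the whole numbers are taken as rounded Salmon estimates. The annotation release is not given in the sources used here. Rows of 64 repeated symbols were summed, and the family name Metazoa_SRP, at most 0.00861% of a library, was left out, leaving 14535 genes.

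Counts were tested with R 4.3.3 and edgeR 4.0.16: filterByExpr, TMM factors (0.443 in doxorubicin library 2 to 1.33 in stretch library 4) and the robust quasi-likelihood F-test, for stretch minus doxorubicin, adjusted (Benjamini-Hochberg) across all 11230 genes tested and called at 0.05. Standard errors were derived from F as the size of the log2 fold change over its root. CPM use the TMM-scaled library sizes of the tested genes, and log-CPM a prior count of 2. Alternatives were DESeq2 1.42.0, limma-voom (limma 3.58.1) without and with library quality weights, other factors (upper-quartile, RLE, or totals alone), no filter or a mean of 10 CPM or more, each library left out, and doxorubicin represented by library 3 alone. The procedure was run on simulated data with the same dispersion for all genes and libraries. The groups here differed in spread, so that run does not check the calls under such a difference. No 2 libraries agreed within sampling noise (chi-square per degree of freedom of at least 8.08 over 21 pairs). The labels name no batch, so no within-batch value could be had. No molecular identifiers are named for these PCR reads, so intervals cover counting error only.

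The 10 genes, the lists, the markers and the alternatives were chosen with earlier results of these data known. Named were all 10 genes, every list member past the threshold (or up to 2 with the lowest adjusted p), and the 5 genes most correlated with TAGLN and with TPM2. Overlapping genes such as FAS, STAMBPL1, PCSK7 and TPM3P9 were named for their position or sequence. Coordinates are from GENCODE release 29 and promoters from RefSeq (GRCh38.p14), with the 50 bases after the start left out.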

Additional observations from a re-analysis of the deposited data

Results flagged for a closer look

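Stretch library 4 stood apart from stretch libraries 5 to 7 for 4 of the 23 named genes. The test was of the gap between the extreme library and its nearest neighbour over the range of the 4 libraries. It flags about 1 in 20 groups by chance, and the share of all genes flagged was not computed. Library 4 also differed more from libraries 5 to 7 over the genes compared (chi-square per degree of freedom 33.7 to 37.6) than these did from each other (8.08 to 21.1). The flags are therefore not read as a result about these genes. TPM2 was 134 CPM in library 4, against 70.7 to 74.5 CPM in the other stretch libraries, and TPM3 was 198 CPM against 92.1 to 101 CPM. CNN2 was lowest in library 4, at 34.98 CPM against 48.9 to 51.7 CPM, and so was DAAM1, at 5.47 CPM against 10.5 to 10.6 CPM. Without library 4 the log2 fold changes, stretch minus doxorubicin, were 0.81 for TPM2, 0.98 for TPM3, -0.37 for CNN2 and -1.39 for DAAM1, and DAAM1 no longer passed (adjusted p = 0.0785 by edgeR).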

How the results depend on the processing

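The groups share no replicate number in the titles. No paired analysis was possible because no label ties a stretch library to a doxorubicin library. The number of genes passing was 261 with all libraries and 12 to 3736 when a library was left out, the lowest without stretch library 6 or 7 and the highest without doxorubicin library 3. It was 13 with library totals alone, 143 at a mean of at least 10 CPM, 1315 with DESeq2, 5194 with limma-voom and library quality weights and 99 with doxorubicin represented by library 3 alone, a setting whose spread comes from the stretch libraries only. Of the 10 genes 1 passed with all libraries and 0 to 4 when a library was left out. The 4 without doxorubicin library 3 were TPM2 and TPM3 (higher in stretch) and ACTA2 and TAGLN (lower in stretch), where 32.2% of all genes passed. The 0 came without stretch library 6 or 7 (0.109% of all genes each). Of the 10 genes, 0 passed with library totals alone (0.116%) and at a mean of at least 10 CPM (1.91%), where TAGLN was not tested. With quality weights 5 passed (those 4 and TPM1), where 46.3% of all genes did.

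With library totals alone the median log2 fold change of all genes was 0.71, beside 0.02 with TMM factors, and TAGLN2 turned to 0.56, CNN2 to 0.44, TPM4 to 0.29 and PPP1R12A to 0.17. With doxorubicin library 3 alone ACTA2 turned to 0.85, CNN2 to 0.32, TPM3 to -0.019, ACTB to 0.18 and PPP1R12A to 0.59, and without stretch library 7 CALD1 turned to -0.0076. The cause was not tested. TAGLN, CNN3, TPM1 and TPM2 kept their direction in every alternative run for them. Depth limits TAGLN in stretch (2 to 7 counts) and TPM3 in doxorubicin library 2 (2 counts).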

Other observations

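The genes whose levels most resembled TPM2 over the 7 libraries, among 7500 compared, were UTP3, DDRGK1, HGS, RBM42 and SMARCE1, with Pearson correlations of log-CPM from 0.994 to 0.999. They are not actin genes: UTP3 acts in ribosome biogenesis, HGS in endosomal sorting and SMARCE1 in chromatin remodelling. SMARCE1 stood at 242 ± 112 CPM in stretch (n = 4) and 111 ± 118 CPM in doxorubicin (n = 3), HGS at 38.6 ± 9.21 against 20.9 ± 17.7 CPM, and UTP3 at 24.2 ± 8.15 against 11.1 ± 9.36 CPM. None of the 5 passed by edgeR, with log2 fold changes from 0.81 to 1.41. The libraries share depth and composition, so this is a description of the libraries.

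Set against the stretch range, doxorubicin library 3 had 6 of the 10 genes inside it, 3 above and 1 below, where 56.7% of all tested genes lay outside. Library 1 had 3 inside, 5 above and 2 below (70.9% of all genes outside), and library 2 had 2 inside, 4 above and 4 below (83.3% of all genes outside).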
